A study of Caenorhabditis elegans with 4 samples.

Results

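Broad ZIM-3 peaks are the 604 nuclear peaks of the authors' series-wide list that measured at least 1000 bp, out of 6646 nuclear peaks in all (9.09%). The remaining 6042 are called narrower peaks here. Broad peaks covered 1283.6 kb, which is 40.3% of all bases inside nuclear peaks and 1.28% of the nuclear genome. They were chosen by their measured width alone, so their widths, and the scores that go with width in the same list, are given as a description with no test. At the boundary, the 3 narrowest broad peaks measured 1004, 1008 and 1008 bp, with scores of 15.1, 16.2 and 22.6. The 3 widest peaks left out measured 998, 996 and 996 bp, with scores of 10.4, 146 and 12.7. The one with a score of 146, at IV 124502 to 125497, is the third-highest peak of the whole list.

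The nematode Caenorhabditis elegans has a small family of zinc finger proteins, ZIM-3 among them, whose members bind the pairing centers of meiotic chromosomes and bring a polo-like kinase there, through which each chromosome finds its homolog and starts synapsis. ZIM-3 serves chromosomes I and IV, whose pairing centers lie towards the right end of I and the left end of IV. The chromosomes of this worm have gene-dense centers and arms that are richer in repeats and in meiotic crossovers. A wide peak can hold a run of neighbouring binding sites or a long stretch of enriched chromatin, which peak lists alone do not separate.

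ChIP-seq was done on whole adult hermaphrodites carrying fem-2(b245)III, an allele of a sex determination gene, at 20 °C, with the affinity-purified rabbit polyclonal antibody SDQ3949 raised against a stretch of ZIM-3. The labels give the stage as young adults that contain a germline, and the growth protocol describes gravid animals. All 4 samples share this strain: 2 are ChIP libraries, numbered replicates 1 and 2, and 2 are input DNA, for which no peak list is used here. Whole animals mix germline and somatic chromatin, and the labels do not tell whether the replicates are separate cultures, so differences between their lists may be technical. With 1 group of 2 ChIP libraries no test across samples was possible. Comparisons below are counts, shares and medians, with Wilson 95% intervals that cover counting error only, since neighbouring peaks are not independent. Replicate 1 has 6079 peaks and replicate 2 has 1211. Read depth is unknown, the scale of the peak scores is not named, and scores are the authors' own.

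The widths of broad peaks had a median of 1461 bp, quartiles of 1144.5 and 2319 bp, and a maximum of 16804 bp. The median of narrower peaks was 261 bp. Between 1000 and 1249 bp there were 232 broad peaks, followed by 81 from 1250 to 1499 bp, 104 from 1500 to 1999 bp, 85 from 2000 to 2999 bp and 102 of 3000 bp or more. The widest class held 16.9% of the broad peaks and 41.1% of their bases.

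The width profile did not fall evenly past 1000 bp. Steps of 50 bp held 33 peaks at 1000 to 1049 bp, 45 at 1050 to 1099 bp, 80 at 1100 to 1149 bp, 41 at 1150 to 1199 bp and 33 at 1200 to 1249 bp. The tallest step, 1100 to 1149 bp, held more peaks than any step between 650 bp and 1099 bp. Of its 80 peaks, 66 overlapped a peak of replicate 1 alone and 14 overlapped peaks of both replicates. Replicate 1's own list had a hump of its own at larger widths, with 39 peaks at 1200 to 1249 bp, 53 at 1250 to 1299 bp and 38 at 1300 to 1349 bp, against 25 at 1100 to 1149 bp. Replicate 2's own list had 6 to 15 peaks in each step from 1000 to 1349 bp and no step that stood out in this way.

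**Figure D1:**
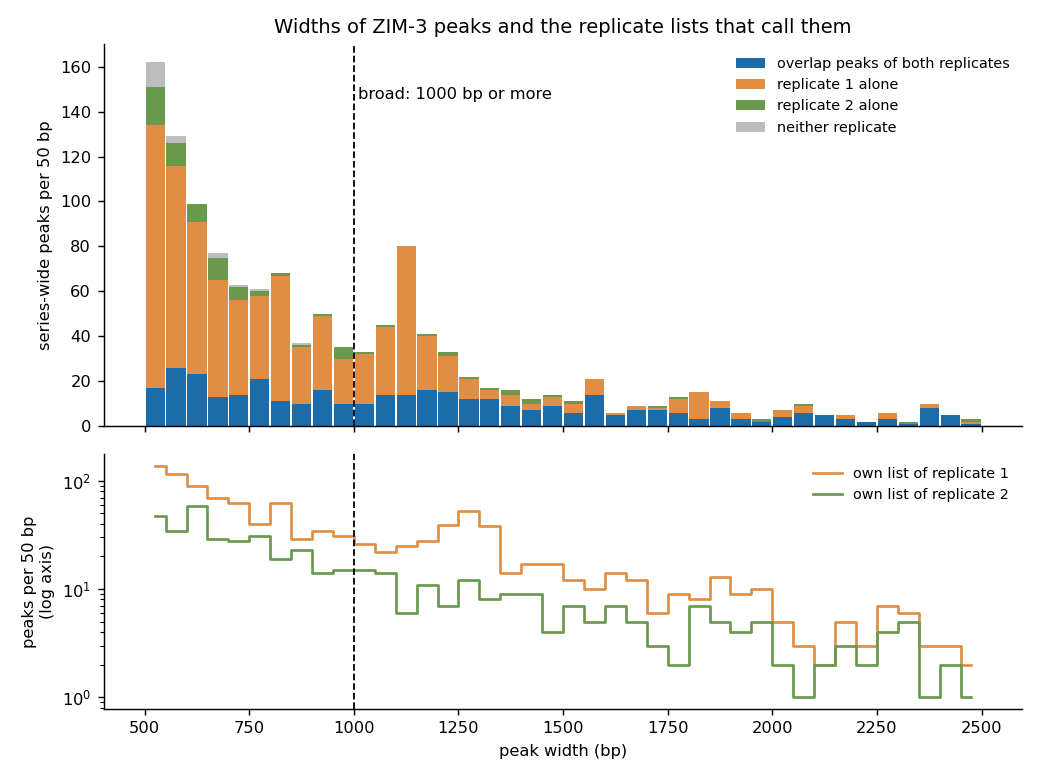
Upper panel: series-wide peaks per 50 bp of width from 500 to 2499 bp, stacked by the replicate lists whose peaks they overlap; the dashed line marks 1000 bp. Lower panel: peaks per 50 bp of width in each replicate's own list (log axis). The tallest step past 1000 bp, at 1100 to 1149 bp, holds 80 peaks, 66 of them called by replicate 1 alone.

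The 166 broad peaks of 1050 to 1199 bp, a range chosen after the profile was seen, differed from the other 438 broad peaks in who called them. Replicate 2 called 46 of the 166 (27.7%, interval 21.5% to 34.97%), against 300 of the 438 (68.5%, interval 64.0% to 72.7%). Of all nuclear peaks it called 14.0%. Most of the 438 are wider, with 317 of 1400 bp or more, and replicate 2 called wider peaks more often. Narrower peaks of 850 to 999 bp had a share near that of the 166, at 35.2% (interval 27.3% to 44.1%). At 1250 to 1399 bp it was 67.3% (interval 54.1% to 78.2%). In replicate 1, 138 of the 166 (83.1%) met exactly 1 peak, against 252 of 438 (57.5%) and 65.2% of narrower peaks. Those single replicate 1 peaks had a median width of 1239.5 bp, and 114 of the 138 were wider than the series-wide peak they met, by a median of 115.5 bp over all 138. For the 252 single peaks at the other broad peaks the median difference was 4.5 bp.

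Low scores did not mark these peaks. Their median series-wide score was 37.6 (quartiles 24.5 and 47.0), against 31.0 (quartiles 19.2 and 49.0) for the other broad peaks. Among the 120 of them called by replicate 1 alone, scores ran from 5.76 to 59.5 with a median of 37.3, and 88 met a replicate 1 peak that scored 1000 or more. Broad peaks of other widths that replicate 1 alone called numbered 138 and had a median score of 20.8. By chromosome the 166 peaks were most dense on IV, with 2.46 per Mb, and V, with 2.25 per Mb, and least dense on X, with 0.903 per Mb. The other broad peaks spread more evenly, from 3.56 per Mb on X to 5.17 per Mb on II. In the arms lay 71.1% of the 166 and 71.2% of the 438.

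All 604 broad peaks overlapped a peak of at least 1 replicate by 1 bp or more. Peaks of both replicates were met by 324 (53.6%), a peak of replicate 1 alone by 258 (42.7%) and of replicate 2 alone by 22 (3.64%). Over the whole nuclear list 10.6% of peaks overlapped both replicates and 24.1% neither, and among narrower peaks the figures were 379 of 6042 (6.27%) and 1599 (26.5%). The sources used here do not tell how the series-wide list was built from the libraries, so these overlaps are not an independent check of it. Wider peaks also meet the 1 bp rule more easily.

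Replicate 1 called 582 broad peaks (96.4%), against a background of 72.5% of all nuclear peaks. It gave 1 peak at 390 of them (64.6%), several at 192 (31.8%) and none at 22. Its share with 1 peak was much the same among narrower peaks, at 65.2%. Replicate 2 called 346 (57.3%, interval 53.3% to 61.2%), against 14.0% of all nuclear peaks. It gave 1 peak at 219 (36.3%), several at 127 (21.0%) and none at 258. Among narrower peaks it gave 1 peak at 9.09%. Several peaks met 7.39% of all nuclear peaks in replicate 1 and 2.42% in replicate 2.

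The patterns of the replicates could be set side by side at each broad peak. Single peaks in both lists were found at 157 broad peaks (26.0%), against 7.39% of all nuclear peaks. A single replicate 1 peak with no replicate 2 peak occurred at 191 broad peaks (31.6%), against 56.9% of all nuclear peaks. It was the commonest pattern among broad and narrower peaks alike. Several peaks in both lists occurred at 74 broad peaks (12.3%), against 1.20% of all nuclear peaks. At 42 broad peaks (6.95%) replicate 1 had a single peak where replicate 2 had several, and at 51 (8.44%) it was the other way round. Among narrower peaks these patterns occurred at 13 (0.22%) and 26 (0.43%). Among the 324 broad peaks called by both, replicate 1 covered more of the peak at 230, replicate 2 at 88, and both the same at 6. Median coverage of these 324 was 97.3% of the width by replicate 1 and 79.6% by replicate 2. At 106 broad peaks, a joint count not made for narrower ones, each replicate covered 90% or more. Counted by replicate, replicate 1 covered that much of 472 of 604 broad and 2118 of 6042 narrower peaks. Replicate 2 did so at 136 broad and 248 narrower peaks.

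Splitting depended in part on short gaps in the replicate lists, more so in replicate 1 than in replicate 2. Neighbouring nuclear peaks of the series-wide list were never closer than 51 bp, while the smallest gap was 1 bp in either replicate list. With replicate peaks within 200 bp of each other merged, the number of broad peaks met by several was 32 in replicate 1 and 50 in replicate 2, against 192 and 127 as listed.

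A replicate peak of 1000 bp or more was present at 459 broad peaks in replicate 1, at 188 in replicate 2 and at 148 in both. Of all nuclear peaks, 7.81% met one that wide in replicate 1, 3.37% in replicate 2 and 2.27% in both, which includes 60 narrower peaks in replicate 1 and 36 in replicate 2. At 105 broad peaks, a joint count not made for narrower ones, neither replicate had a peak that wide. Read from the replicates, 494 of the 520 replicate 1 peaks of 1000 bp or more met a broad peak, as did 216 of the 229 in replicate 2. Between the replicates, 173 of those 229 (75.5%) met a peak of 1000 bp or more in replicate 1, and 165 of those 520 (31.7%) met one in replicate 2.

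Calls by replicate 2 were more frequent at larger widths, though not step by step. Its share was 31.9% of broad peaks of 1000 to 1249 bp (interval 26.2% to 38.1%), 69.1% at 1250 to 1499 bp, 62.5% at 1500 to 1999 bp, 77.6% at 2000 to 2999 bp and 83.3% at 3000 bp or more (interval 74.9% to 89.3%). Replicate 1 called between 91.4% and 97.8% in each of these classes. The share met by several replicate 2 peaks was larger in each wider class, with 5.60%, 19.8%, 23.1%, 29.4% and 48.0%. A further rule, the midpoint lying inside a replicate peak, is not met more easily through width alone. It can miss split peaks, whose midpoint may fall in a gap. The rule gave replicate 2 a share of 20.7% in the narrowest class and 68.6% in the widest. By that rule replicate 2 held 42.9% of all broad peaks and replicate 1 held 92.1%, against 12.1% and 68.3% of all nuclear peaks.

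**Figure D2:**
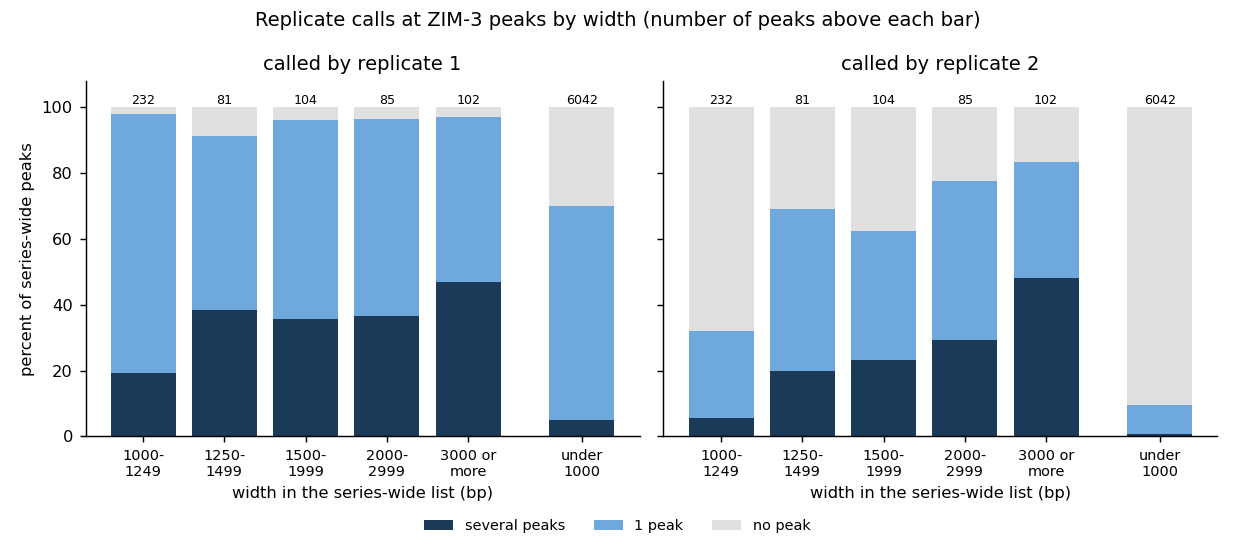
Percent of series-wide peaks met by several, 1 or no peaks of replicate 1 (left) and replicate 2 (right), for 5 width classes of broad peaks and, set apart at the right of each panel, for narrower peaks; numbers above the bars are peaks. Replicate 2 leaves 68.1% of the 1000 to 1249 bp class and 16.7% of the class of 3000 bp or more without a peak.

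Scores of broad peaks were high within the list. Their median was 33.9 (quartiles 20.2 and 47.9), against 7.01 (quartiles 4.58 and 11.8) for narrower peaks. Only 8 broad peaks scored at or under the median of narrower peaks, and 144 narrower peaks (2.38%) scored at or above the median of broad ones. In the highest-scoring 10% of the nuclear list, 389 of 665 peaks were broad (58.5%), and in the next 10% the share was 17.9%. None of the 1993 peaks in the lowest 30% of scores was broad. Of the 100 highest peaks 68 were broad, and of the 10 highest 5 were.

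Within the broad peaks score and width went together only weakly. Across the 604 peaks Spearman's rho was 0.20, as a description over peaks of 1 list, against 0.55 across the narrower ones. It was 0.20 for the 324 called by both replicates and -0.11 for the 258 called by replicate 1 alone. Peaks called by both had a median score of 41.5, those of replicate 1 alone 27.5 and those of replicate 2 alone 9.58. The top of the replicate scores lay almost wholly in broad peaks. All 64 replicate 2 peaks with the tied highest score of 3100 met a broad peak, and so did 125 of the 127 replicate 1 peaks scoring 3100 or more. For replicate peaks of any score, overlaps with broad and narrower peaks numbered 612 and 617 in replicate 2. In replicate 1 they numbered 889 and 4550. A replicate peak that met more than 1 series-wide peak counts at each. At 42 broad peaks, a joint count not made for narrower ones, both replicates reached a score of 3100 or more. Counted by replicate, replicate 1 reached it at 121 of 604 broad and 8 of 6042 narrower peaks. Replicate 2 did so at 63 broad and 2 narrower peaks.

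Broad and narrower peaks could be compared within steps of 10% of the score, although their scores still differed inside a step. In the highest-scoring 10%, which spans scores of 25.96 to 233.1, the median score was 43.7 for broad and 34.6 for narrower peaks. There, replicate 2 called 65.3% of broad peaks (254 of 389, interval 60.4% to 69.9%). Of the narrower peaks it called 65.9% (182 of 276, interval 60.2% to 71.3%). In the next 10% it called 49.6% of broad peaks (interval 40.8% to 58.4%) and 25.5% of narrower ones (interval 22.0% to 29.3%). By the midpoint rule the shares in the highest 10% were 50.1% of broad and 63.0% of narrower peaks, and in the next 10% 32.8% of broad and 24.7% of narrower peaks. In the highest 10% the shares by overlap were thus nearly equal, and only the midpoint rule gave broad peaks a lower share. There, replicate 2 covered 59.3% of the bases of broad peaks and 58.8% of those of narrower ones. A midpoint can fall between the pieces of a split peak. Whether splitting accounts for the lower share of broad peaks by that rule was not tested.

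**Figure D3:**
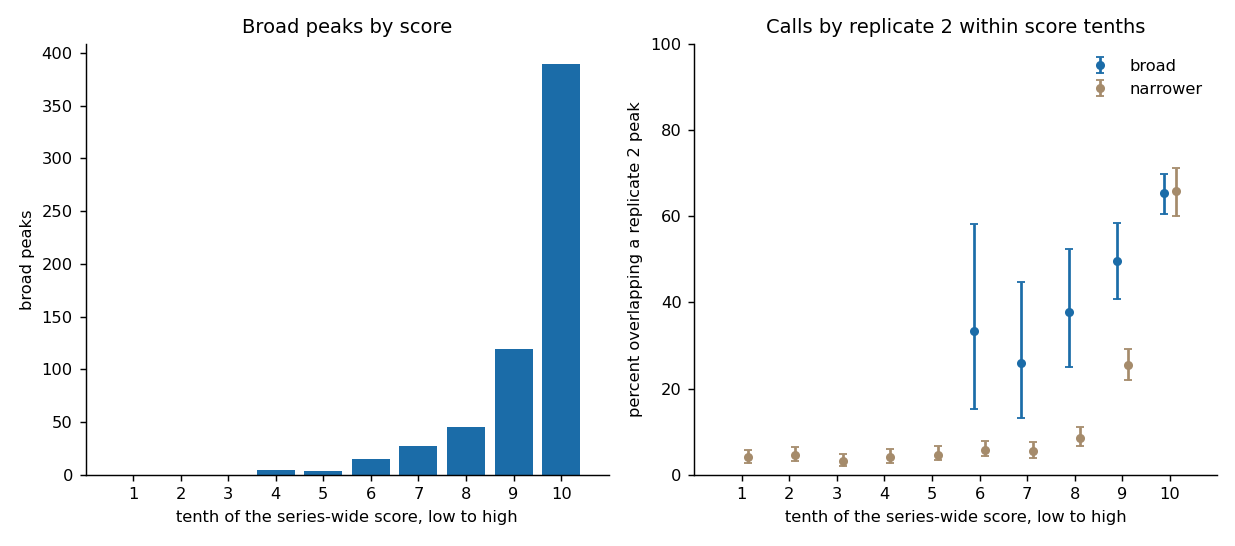
Left: number of broad peaks in each 10% step of the series-wide nuclear score, from low to high. Right: percent of broad and narrower peaks overlapping a replicate 2 peak within each step (points, with Wilson 95% intervals; steps with 10 or fewer peaks not drawn). The highest step holds 389 of the 604 broad peaks, and in it the shares of broad and narrower peaks called by replicate 2 are 65.3% and 65.9%.

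Broad peaks were found on all 6 nuclear chromosomes. Chromosomes I and IV together held 210 of them (34.8%, interval 31.1% to 38.7%), at 6.45 per Mb, against 5.82 per Mb on the other 4 chromosomes. The pair makes up 32.5% of the nuclear length and held 40.4% of the narrower peaks (interval 39.2% to 41.6%), at 74.9 per Mb, against 53.2 per Mb on the other 4. By chromosome, the densities were 7.09 broad peaks per Mb on IV (124 peaks), 6.79 on V (142), 6.68 on II (102), 5.71 on I (86), 5.15 on III (71) and 4.46 on X (79). The genome-wide density was 6.02. Chromosome I held 14.2% of the broad peaks (interval 11.7% to 17.3%), 17.8% of the narrower ones and 15.03% of the nuclear length. Chromosome II held 16.9% of the broad peaks (interval 14.1% to 20.1%), 13.5% of the narrower ones and 15.2% of the length. As a share of the peaks on a chromosome, broad ones ran from 7.39% on I (interval 6.02% to 9.04%) to 11.1% on II (interval 9.23% to 13.3%), against 9.09% in the whole list.

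The spread was more even for broad peaks called by both replicates. Their density ran from 2.77 per Mb on X to 3.66 per Mb on IV, with I next at 3.58. Together I and IV had 3.62 per Mb of this class and the other 4 chromosomes 3.04, and the pair held 36.4% of it (interval 31.4% to 41.8%). For those of replicate 1 alone it ran from 1.41 per Mb on X to 3.34 per Mb on II, with 3.30 on V and 3.20 on IV. Both replicates called 62.8% of the broad peaks of I, 62.0% of those of X and 62.0% of those of III, against 51.6% on IV, 48.0% on II and 45.1% on V. Among narrower peaks the share called by both was 6.31% on I, 9.63% on X, 5.74% on III, 5.95% on IV, 6.12% on II and 5.10% on V, so that V was lowest in either width class.

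**Figure D4:**
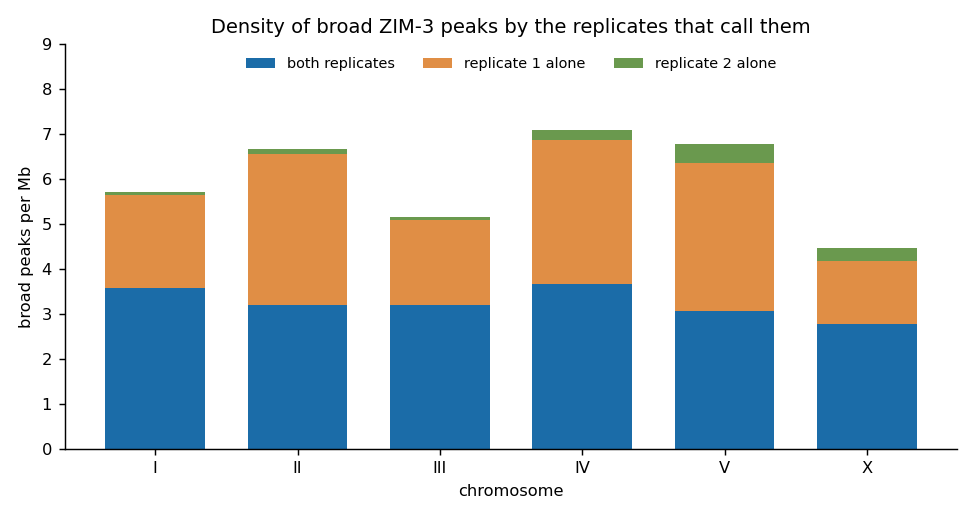
Broad peaks per Mb on each nuclear chromosome, stacked by whether both replicates, replicate 1 alone or replicate 2 alone overlap them. The part called by both lies between 2.77 and 3.66 per Mb, and the part called by replicate 1 alone between 1.41 and 3.34.

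Arms, taken as the outer 30% on each side, held 430 of the 604 broad peaks (71.2%, interval 67.5% to 74.7%) and 4442 of the 6042 narrower ones (73.5%, interval 72.4% to 74.6%). In the whole nuclear list the share was 73.3%, where arms make up 60% of the length. The share of all broad peaks in the arms was thus close to that of peaks of any width. By width class it ran from 65.7% at 3000 bp or more (interval 56.1% to 74.2%) to 76.9% at 1500 to 1999 bp (interval 68.0% to 84.0%). Peaks of 1000 bp or more in the replicates' own lists had lower shares, 68.7% in replicate 1 and 63.3% in replicate 2 (interval 56.9% to 69.3%). Broad peaks called by both replicates lay in the arms in 69.1% of cases, those of replicate 1 alone in 74.4%.

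The sides of the arms differed more than arms and centers did. On chromosome IV, 27 of 124 broad peaks were in the left arm (21.8%, interval 15.4% to 29.8%), against 605 of 1362 narrower ones (44.4%, interval 41.8% to 47.1%). The right arm of IV held 58 broad peaks (46.8%, interval 38.2% to 55.5%), against 401 narrower ones (29.4%, interval 27.1% to 31.9%). In the left arm of IV, where narrower peaks were most dense of all arms and centers at 115 per Mb, 4.27% of the peaks were broad, the lowest such share among the 18. In its right arm 12.6% were broad, at 11.1 broad peaks per Mb, the highest such density among the 18. The split of the broad peaks of IV was similar in both main call classes. The 64 called by both replicates had 21.9% in the left and 46.9% in the right arm. For the 56 of replicate 1 alone the shares were 23.2% and 50%. Narrower peaks were not placed by arm within these classes.

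On the other chromosomes the broad peaks kept closer to the narrower ones. The right arm of V held 42.3% of its broad peaks (interval 34.4% to 50.5%) and 33.2% of its narrower ones. On I, whose right arm contains the pairing center, it held 40.7% of broad and 42.3% of narrower peaks. On II the left arm held 44.1% of broad and 36.5% of narrower peaks, and the right arm 31.4% of broad (interval 23.2% to 40.9%) and 41.9% of narrower peaks (interval 38.5% to 45.3%), the widest difference in an arm outside IV. On X the left arm held 46.8% of broad and 44.3% of narrower peaks. On III the center had 35.2% of broad peaks (interval 25.1% to 46.8%), against 26.7% of narrower ones. Of its 25 central broad peaks, 14 were between 50% and 60% of its length, where 10 belonged to 1 cluster described below.

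**Figure D5:**
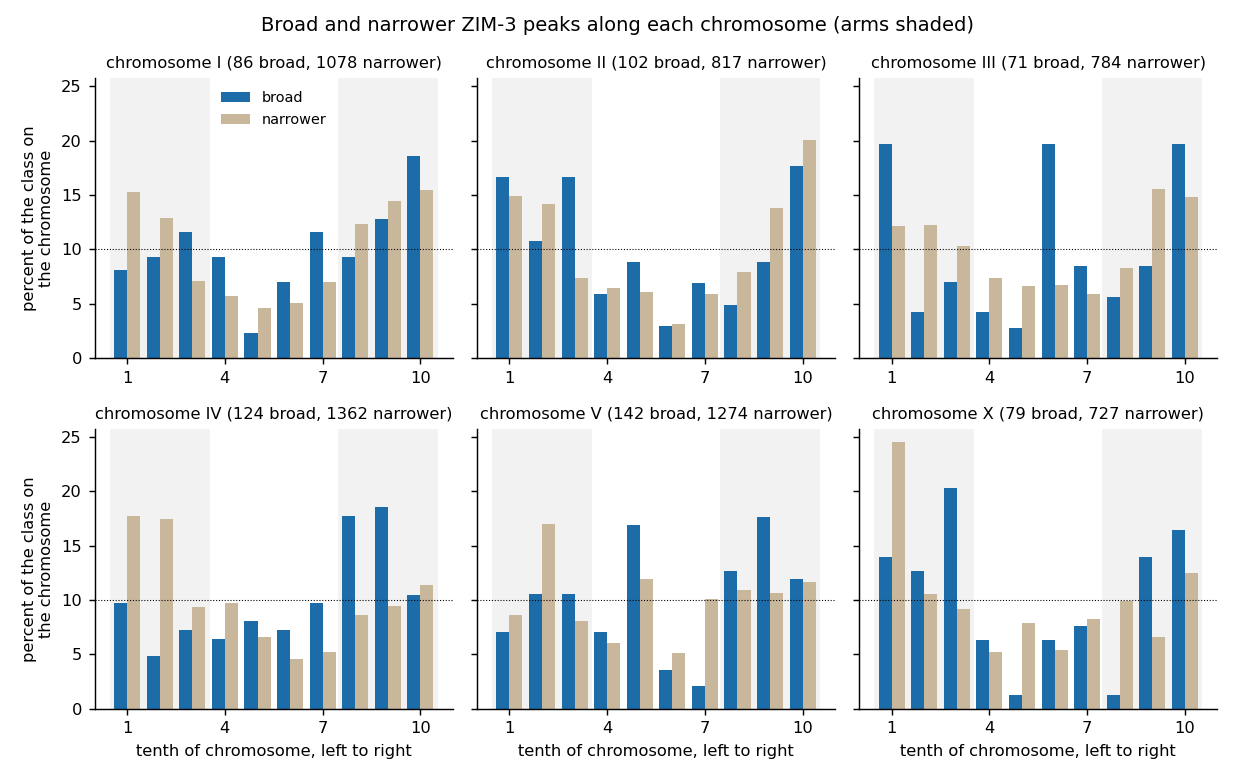
Percent of broad peaks and of narrower peaks of each nuclear chromosome in each 10% of its length, from the left end to the right end; shading marks the arms and the dotted line the 10% of an even spread. On IV the broad peaks are most frequent between 70% and 90% of the length (22 and 23 peaks per step), the narrower ones in the first 20% (241 and 237 peaks per step).

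Spacing between neighbouring broad peaks, from the end of one to the start of the next, had a median of 86.5 kb over 598 gaps, with quartiles of 17.1 and 200.5 kb. Narrower peaks, 10 times as many, had a median gap of 4.0 kb. Gaps depend on the number of peaks in a class, so the medians are given as a description. Gaps of at most 10 kb made up 20.4% of those between broad peaks and gaps of at most 1 kb 10.7%. The median gap inside an arm was 73.4 kb on the left and 72.8 kb on the right, and 117 kb in the centers. The longest stretches without a broad peak were V 11320602 to 13123992 (1803 kb, with 55 narrower peaks inside), X 7361336 to 8999604 (1638 kb, with 51) and X 12279981 to 13794560 (1515 kb, with 68).

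Most broad peaks had a close neighbour of some width. The nearest peak of any width lay at a median of 1.11 kb from a broad peak and 0.804 kb from a narrower one. A broad peak lay within 10 kb of 32.9% of broad peaks and of 19.3% of narrower ones.

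When gaps of at most 10 kb were joined, 405 broad peaks stood alone and 199 (32.9%) fell into 77 clusters, 23 of which had 3 or more members. The largest, at III 7405269 to 7452273, held 10 broad peaks that filled 87.2% of 47.0 kb. All 10 were called by both replicates. Their scores ran from 16.6 to 88.3 with a median of 22.5, below the median of all broad peaks. A second run, X 4025942 to 4056397, held 8 broad peaks over 30.5 kb, filled to 95.1%, again all called by both replicates, with a median score of 17.7. Calls of neighbours are not always separate, and some members of this run met the same replicate 1 peak of 11473 bp. Of 64 neighbouring pairs of broad peaks within 1 kb, 8 lay under 1 replicate 1 peak and 5 under 1 replicate 2 peak. Chromosome II had a pair of clusters of 5. The one at II 1961691 to 1986046 had 2 members called by both replicates and 3 by replicate 1 alone. The one at II 13817683 to 13825798 scored 5.76 to 8.87 and was called by replicate 1 alone at all 5. The largest groups on the remaining chromosomes had 4 members at IV 688657 to 704149, 4 at V 14741535 to 14769801 and 3 at I 4281672 to 4293459, a size that 2 clusters on I reached.

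The 10 widest peaks spanned 7823 to 16804 bp and both replicates called each of them. The widest, I 4340814 to 4357617, scored 45.4 and was a single peak of 16869 bp in replicate 1 and 4 peaks covering 98.9% of it in replicate 2. Next came III 13584082 to 13599350, 15269 bp wide with a score of 85.0. It lay at 98.6% of the chromosome's length and was broken into 6 peaks in replicate 1 and 14 in replicate 2, the highest number of replicate 2 peaks in any broad peak. Chromosome I also held I 10207536 to 10219412 (11877 bp, score 60.8) and I 10266324 to 10277053 (10730 bp, score 72.8). Between them lay the broad peak I 10239540 to 10241372 (1833 bp, score 41.3).

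At the right tip of chromosome I, I 15060192 to 15071393 was 11202 bp wide and scored 88.8. It was a single peak with a score of 3100 in both replicates, 11154 bp wide in replicate 1 and 11137 bp in replicate 2. The right end of I is known to carry the repeated array of the large ribosomal RNA genes; gene annotation was not used with these coordinates.

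The widest peaks of the other chromosomes varied in how well the replicates matched. On X, 10361030 to 10369180 (8151 bp, score 57.8) was a single peak covering the whole width in both replicates. By contrast X 7351316 to 7361335 (10020 bp, score 44.5) was covered to 99.5% by replicate 1 and to 5.69% by replicate 2, through 2 peaks of at most 329 bp. The widest of X, 4040735 to 4051183 (10449 bp), scored 19.6 and belonged to the cluster of 8. On III, 6566680 to 6574502 (7823 bp, score 19.1) met 2 peaks in replicate 1 and 5 in replicate 2. On V, 7916799 to 7925006 (8208 bp, score 43.6) was 1 peak in replicate 2 and 4 in replicate 1. The widest of II, 9814473 to 9821744 (7272 bp), scored 18.7 and was 3 peaks in replicate 1 and 9 in replicate 2. Chromosome IV had the smallest maximum, 6545 bp, at IV 8575195 to 8581739 (score 62.3). In replicate 1, the most broken broad peak was I 4286326 to 4293459, with 10 peaks over 7134 bp. Also among the most broken were III 7433116 to 7439251, with 6 peaks in replicate 1 and 8 in replicate 2, and III 13074918 to 13082205, with 5 and 9.

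The highest-scoring broad peaks were not the widest ones. The first, IV 195277 to 197054, was 1778 bp wide with a score of 233.1 and ranked 229 by width. The second, IV 215444 to 216492, had 1049 bp and a score of 150, and the fourth, IV 229730 to 231197, had 1468 bp and a score of 125. All 3 were single peaks in both replicates. Of the 12 broad peaks in the first 10% of IV, 7 were called by both replicates and the median score was 41.6.

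On chromosome I, the 2 highest-scoring broad peaks, near the right end, were narrower in replicate 1 than in replicate 2. At I 14413560 to 14415487 (1928 bp, score 138) the replicate 1 peak had 1366 bp and the replicate 2 peak 1735 bp. At I 13589328 to 13591725 (2398 bp, score 123) replicate 1 covered 24.2% with a peak of 599 bp, and replicate 2 covered 97.2% with 2 peaks. Elsewhere the highest-scoring broad peaks were V 10605573 to 10612525 (6953 bp, score 96.3), X 15806978 to 15811280 (4303 bp, score 90.7), II 1450353 to 1455385 (5033 bp, score 103) and III 3334221 to 3337034 (2814 bp, score 92.98). The ones on V, X and III were single peaks scoring 3100 in both replicates.

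Broad peaks seen in 1 replicate were chosen for naming after their values were known. Of the 258 called by replicate 1 alone, the 3 widest all lay on the left arm of II. They were at II 1977401 to 1983486 (6086 bp), II 2003928 to 2009806 (5879 bp) and II 1961691 to 1967295 (5605 bp), and replicate 1 covered 98.1% to 99.6% of each. The 3 with the highest scores measured 1129, 1134 and 1140 bp, at II 3601690 to 3602818 (score 59.5), V 2454611 to 2455744 (score 56.5) and I 4752067 to 4753206 (score 55.8). Each was wholly covered by 1 replicate 1 peak, 1241 to 1293 bp wide. Among the 22 called by replicate 2 alone, the widest was V 6176799 to 6183253 (6455 bp, score 37.3), where 4 replicate 2 peaks covered 49.4%. Its neighbour V 6172295 to 6176187 (3893 bp, score 47.1) was covered to 98.5% by replicate 2. With depth unknown, a peak missing from a replicate's list does not show that signal was absent there.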

How the data were processed

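Only peak lists were analysed: 1 per ChIP sample and 1 for the whole series, with 3 in all. The authors deposited each peak with a start, an end and a score whose scale is not named. Coordinates refer to WormBase WS220, per the file headers. The source column of the lists names MACS for the replicates and MACS v2 for the series-wide peaks. BWA and the build ce10 stand in the submitters' processing notes without versions. Merging of the lists and the control are not given in the sources used here.

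Broad peaks were nuclear series-wide peaks of at least 1000 bp. Chromosome length was the largest peak end in the 3 lists. Peaks were placed by midpoint, and arms were the outer 30% on each side. Overlap meant 1 shared bp. Intervals are Wilson 95% intervals. No test was run: 1 group of 2 ChIP libraries allows none across samples. Overlap, spacing and clustering steps were tested on simulated lists. Tools were pandas 2.3.3, numpy 2.4.6 and scipy 1.17.1 under Python 3.11.15, with plots by matplotlib 3.10.9.

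The members, width classes and lists were chosen with earlier results of these data known. Sites named are the 10 widest, the 5 highest-scoring, the widest and highest-scoring and the largest cluster of each chromosome, the 3 with most replicate peaks and the 3 on either side of 1000 bp; those named for calls by 1 replicate were added. Alternatives were other widths, arms, overlap rules, covered bases, merged peaks and each replicate's own list. No sequence or gene annotation was used, since the gene table at hand is on another build.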

Additional observations from a re-analysis of the deposited data

Results flagged for a closer look

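The series-wide list has 13 peaks on the mitochondrial genome, data outside the nuclear comparisons, while both replicate lists have 0. Of these 13, 3 measured 1000 bp or more, from 1036 to 4488 bp, with scores of 10.0 to 21.9. No control list was set beside them.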

How the results depend on the processing

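Of 109 values recomputed under other settings, 59 stayed within the interval of the reported value, or within 1.5 times a reported count. The rest are given here; except where the setting itself selects other peaks or another area, the cause was not tested. Leaving out the widths of 1050 to 1199 bp was chosen after seeing the data. With a minimum width of 2000 bp the share in arms was 66.8%, chromosomes III, X and V held 16.6%, 16.6% and 14.97% of the peaks, replicate 2 called 80.7%, both replicates called 77.5%, the median score was 38.1 (7.41 for the narrower rest) and the median gap was 304.8 kb. At 1500 bp, IV held 17.2%, replicate 2 called 74.2% and both 70.8%, the narrower rest had a median score of 7.15, and the gap was 181 kb. At 800 bp, replicate 2 called 50.5% and both 46.7%, the median scores were 28.2 and 6.645, and the gap was 65.1 kb. Without the widths of 1050 to 1199 bp, replicate 2 called 68.5% and both 63.9%, the median score was 31.0 and the gap 126 kb. By covered bases III held 15.1% and V 20.3%. Arms of the outer 25% held 61.1% of broad peaks and arms of the outer 35% held 78.3%. In the replicates' own lists, the peaks of 1000 bp or more lay in arms at 63.3% to 68.7%. There, I held 12.9% to 18.8%, II 12.7% to 18.7%, III 14.8% to 17.5%, IV 15.3% to 20.8%, V 17.0% to 20.4% and X 12.5% to 18.8%. Leaving out replicate 1 or 2, broad peaks called by the other numbered 346 to 582. The shares called by replicate 1, replicate 2 and both were 80.5%, 31.5% and 24.0% with reciprocal overlap of 50%, 92.1%, 42.9% and 36.9% by the midpoint, and 93.4%, 42.1% and 36.4% where 50% of the peak had to be covered. With replicate peaks within 200 bp merged, several peaks met 32 broad peaks in replicate 1 and 50 in replicate 2. In the highest-scoring 10% the median scores were 43.7 for broad and 34.6 for narrower peaks. For broad peaks at or above their median score the gap was 179 kb. Read depth is unknown, which limits what a missing call shows. No paired analysis was possible because lists of the ChIP group alone are used here, so no groups could be compared.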
